A study of Mus musculus with 6 samples.

Results

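Fndc9 (ENSMUSG00000048721) was followed across 6 RNA-seq libraries of induced germinal center B cells (iGBs). It is the 1 row of the 39017 in the deposited count table whose gene symbol is Fndc9. The gene was chosen by its counts, which had already been seen to differ between the groups, so that difference is given below as a description and without a test. iGBs are mouse splenic B cells that proliferate on 40LB cells, a fibroblast feeder line that supplies CD40L and BAFF, with IL-4 in the medium, and take on features of germinal center B cells. All 6 mice were C57BL6/J. The 3 Control mice carried Cg1-cre alone and the 3 Prmt1-null mice carried Cg1-cre together with Prmt1f/f, with 2 females and 1 male in each group. The labels give no ages. Cells of both groups received CD40L, BAFF and IL-4 (5 ng/ml in the labels, a lower dose in the methods of the study), were harvested on day 3.5, and were separated from the feeders before total RNA was extracted. Each library came from 1 mouse. Cg1-cre acts in B cells that have been activated and transcribe the Cγ1 locus, so Prmt1 is deleted during the culture and the cells start it with PRMT1. The comparison asks what the loss of PRMT1, the main enzyme for asymmetric dimethylation of arginine, changes in these B cells.

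Fndc9 encodes a small protein with a fibronectin type III (FN3) domain and a predicted membrane span, and its role is not well described. The FN3 domain is a fold of stacked beta strands first recognised in fibronectin. In lymphocytes it forms much of the outer part of cytokine receptors such as those for IL-4 and IL-21, and of receptor phosphatases such as CD45. Fndc5, the best known relative by name, is the precursor of the muscle hormone irisin.

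In the GENCODE M21 annotation of GRCm38 (the assembly of mm10, which the authors used), Fndc9 occupies bases 46235531 to 46239872 on the plus strand of chromosome 11. It has 2 exons. Exon 1 holds 66 bases, all of them 5′ UTR, and exon 2 holds 2224 bases from 46237649 to 46239872, with the whole coding part of 226 codons and the 3′ UTR. The gene lies inside another gene. Cyfip2, which encodes a subunit of the WAVE complex that builds branched actin, runs on the minus strand from 46193850 to 46312859, and Fndc9 sits in a stretch of 15798 bases between 2 of its exons, with 0 bases of exon overlap and the next Cyfip2 exon starting 132 bases past its end. The sequence just upstream of Fndc9 is shown because it is where the promoter of the gene would lie. It is the part of the RefSeq promoter window (GRCm38.p6) that precedes the GENCODE start, chr11:46235307-46235530, plus strand, 224 bases, with CG pairs in capitals.
Fndc9 upstream: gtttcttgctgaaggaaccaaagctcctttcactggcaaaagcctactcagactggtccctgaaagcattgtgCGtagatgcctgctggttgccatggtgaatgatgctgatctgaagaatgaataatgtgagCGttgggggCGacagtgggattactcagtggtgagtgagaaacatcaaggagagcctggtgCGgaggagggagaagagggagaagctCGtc
The stretch was 51.3% G and C against a median of 51.8% over 32851 promoter windows of the same length, and its 5 CG pairs equalled the median of 5. Searched on both strands, it held 0 matches to TATAAA (in 10.3% of all windows), CCAAT (31.5%), GGGCGG (29.1%), the Myc E-box CACGTG (5.13%), TGACG (15.2%), the AP-1 motif TGANTCA (6.23%) or the STAT motif TTCNNNGAA (6.35%), and 1 match to the ETS core GGAA (91.4%). A match or its absence describes the letters of this window and says nothing of the factors.

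The libraries held 45343250 to 62774232 counted reads each. Prmt1, the targeted gene, had normalized read counts (counts scaled to a common library size) of 3964, 3924 and 4838 in Control iGBs. Its values in Prmt1-null iGBs were 1745, 1478 and 1477, so that 36.9% of the Control mean was still counted on the gene. The labelled cell type matched its markers. All 8 B cell markers were tested and their summed level was 10895 to 12374 CPM (counts scaled to library size) in Control and 12020 to 12563 CPM in Prmt1-null iGBs. Reads counted on a bulk sample cannot tell more RNA per cell from more cells that make it, and this holds for every value below.

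Reads were counted on Fndc9 in every library, with a mean about 3-fold higher in Prmt1-null iGBs. Its raw counts were 562, 511 and 499 in Control replicates 1, 2 and 3, and 1927, 1988 and 1485 in Prmt1-null replicates 1, 2 and 3. After scaling, the Control libraries had 682.8, 448.6 and 549.8 normalized counts and the Prmt1-null libraries 1951, 1833 and 1404. The lowest Prmt1-null library lay 2.06 times above the highest Control library, so the groups did not overlap. Of all 18268 genes tested, 19.9% did not overlap between the groups and 9.95% lay higher in every Prmt1-null library, and nothing is read from Fndc9 being one of them. The means were 560.4 ± 117 (SD, n = 3) in Control and 1729 ± 288 (SD, n = 3) in Prmt1-null iGBs, a ratio of 3.09 and a fitted log2 fold change of 1.63 (standard error 0.157).

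**Figure D1:**
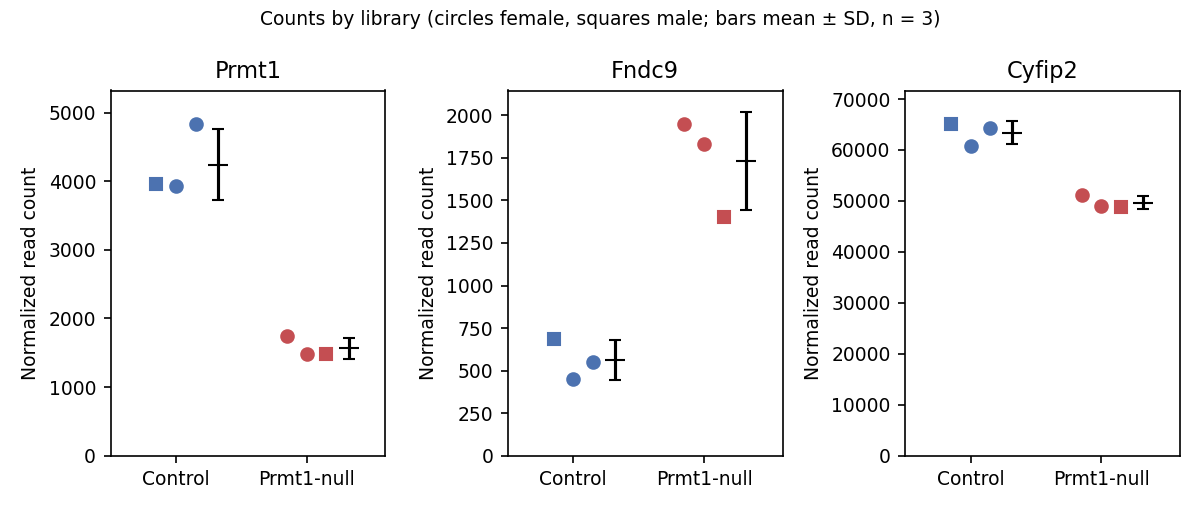
Normalized read counts (vertical axes, from 0) of Prmt1, Fndc9 and Cyfip2 in the 3 Control and 3 Prmt1-null libraries, with circles for female and squares for male mice and bars for the mean ± SD. Fndc9 runs from 448.6 to 682.8 in Control and from 1404 to 1951 in Prmt1-null iGBs, while Prmt1 and Cyfip2 are lower in every Prmt1-null library.

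Per length, Fndc9 lay near the middle of the expressed genes in Control and above most of them in Prmt1-null iGBs. Its level in RPKM (counts scaled to library size and exon length) was 5.38, 3.53 and 4.33 in Control replicates 1 to 3, against 15.4, 14.4 and 11.1 in Prmt1-null replicates 1 to 3. The mean of 4.41 ± 0.925 RPKM (SD, n = 3) in Control was above that of 52.7% of the tested genes with a known length, and the mean of 13.6 ± 2.27 RPKM (SD, n = 3) in Prmt1-null iGBs above that of 77.1%.

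Among the 216 genes past the threshold of the study (a Benjamini-Hochberg adjusted p under 0.05, here from the quasi-likelihood F test of edgeR, and a mean normalized count over 100), which were 1.18% of tested genes, 106 (0.58%) had higher and 110 (0.602%) had lower counts without PRMT1. Nothing is read from Fndc9 passing a threshold on the contrast that chose it. Fndc9 had the 3rd largest log2 fold change of these 106. The genes just above it were Poln, a DNA polymerase that copies past lesions, with a value of 1.84 (standard error 0.177), and Ptgir, the prostacyclin receptor, with 1.74 (standard error 0.286). The exons of Poln overlap those of Haus3, so its counts are uncertain. Just below came the costimulatory receptor gene Cd28 with 1.49 (standard error 0.187), the ganglioside synthase gene St8sia1 with 1.38 (standard error 0.239), whose exons overlap an opposite-strand gene, and Ly6c2, a surface protein gene of the Ly6 family with near-identical copies, with 1.12 (standard error 0.158). Per length, mean Control levels were 4.41 RPKM for Fndc9 and 4.71 for Ly6c2, against 0.477 for Poln, 0.379 for Ptgir, 0.480 for Cd28 and 0.165 for St8sia1. By the difference of the mean normalized counts rather than their ratio, Fndc9 was 38th of the 106.

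Over all 18268 tested genes, 90 had a larger fitted log2 fold change than Fndc9, and 87 of them had a mean normalized count of at most 100 (94.5 at most). The other 3 were Poln, Ptgir and Fgfbp3, a secreted carrier of fibroblast growth factors that was singled out after its values were seen. Mean normalized counts of Fgfbp3 were 47.43 ± 65.3 in Control against 237.4 ± 5.99 in Prmt1-null iGBs (SD, n = 3), a log2 fold change of 2.33 with a standard error of 0.658, and an adjusted p of 0.113 in edgeR's test. No tested gene with a mean count above that of Poln (328.6) had a larger log2 fold change than Fndc9.

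**Figure D2:**
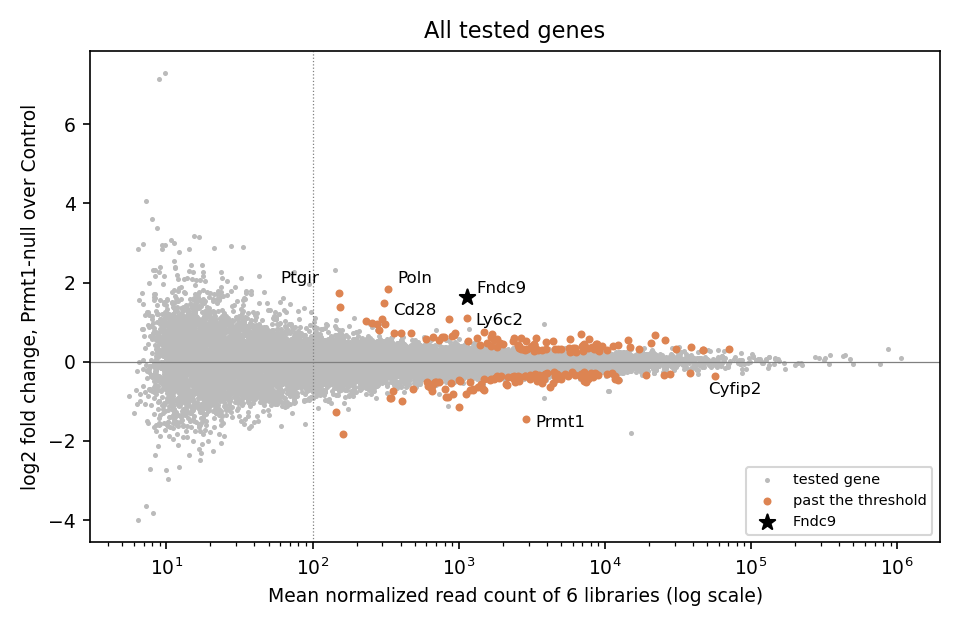
Log2 fold change of Prmt1-null over Control (vertical axis) against the mean normalized count of the 6 libraries (horizontal axis, log scale) for the 18268 tested genes, with the 216 genes past the threshold in orange, Fndc9 as a star and a dotted line at a mean count of 100. Fndc9 lies at 1.63 and a mean count of 1145, with no gene of that or a higher mean count above it.

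The 3 libraries of each group spread more for Fndc9 than for most genes of its abundance. Its coefficient of variation was 20.96% in Control and 16.7% in Prmt1-null iGBs. Counting error alone gives 4.22% to 4.48% in the Control and 2.24% to 2.60% in the Prmt1-null libraries. Of the 1000 tested genes nearest in mean count, 96.8% had a lower coefficient of variation in Control (median 8.22%) and 96.7% in Prmt1-null iGBs (median 6.77%). Each group's outermost library was its male. The Control male had the highest Control value, 682.8 against a female mean of 499.2, and the Prmt1-null male the lowest Prmt1-null value, 1404 against a female mean of 1892. The ratio of Prmt1-null to Control was therefore 3.79 between the female means and 2.06 between the single males. A sex effect common to both genotypes, which is independent of the difference that chose the gene, was not detected. The log2 difference of male minus female was 0.002 (standard error 0.162, edgeR adjusted p = 0.999) with genotype in the model. Across all genes 12 of 18268 (0.0657%) passed for sex. That common term averages male-female differences of opposite sign in the 2 groups. The fitted difference between the sexes in the genotype effect was −0.89 on the log2 scale (edgeR, unadjusted p = 0.00148, adjusted p = 0.295 over all genes). It did not pass the adjustment, and with 1 male per group nothing further is read from it.

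Cyfip2, the gene around Fndc9, was lower in Prmt1-null iGBs. The Control libraries had 65155, 60795 and 64258 normalized counts of it and the Prmt1-null libraries 51234, 48943 and 48864, without overlap. On the log2 scale Cyfip2 fell by 0.35, with a standard error of 0.060 and an edgeR adjusted p of 0.0127. Each Prmt1-null library left out in turn took this adjusted p over the threshold, to between 0.0596 and 0.107, with the log2 fold change between −0.37 and −0.34. Fndc9 received 0.738 to 1.05 reads per 100 Cyfip2 reads in Control and 2.87 to 3.81 in Prmt1-null iGBs.

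The place of Fndc9 bears on what its counts hold, since the libraries were depleted of ribosomal RNA rather than selected for poly(A) tails, and unspliced transcripts stay in such libraries. The strand setting of the counting is not stated. Among genes that lie wholly inside exons of a well expressed gene on the opposite strand, 18 could be examined. Their median level was 97.6% of the RPKM of the gene around them in Control (quartiles 42.2% and 122%). Counting reads on both genes whatever their strand would give such levels, but this was not tested. With the strand setting unknown, counts on Fndc9 cannot be told apart from reads of unspliced Cyfip2. The 75 other genes that lie in an intron of a well expressed gene (RPKM in the top quartile) on the opposite strand had a median of 4.03% of their host's RPKM in Control (upper quartile 12.7%) and 4.02% in Prmt1-null iGBs (upper quartile 11.6%). The 31 genes on the same strand as their host had a median of 4.19% in Control. Fndc9 was at 2.74% of Cyfip2 in Control, and at 10.8% in Prmt1-null iGBs, below the upper quartile in both groups. Its log2 fold change minus that of Cyfip2 was 1.98, and for 61 other opposite-strand genes in introns this difference ran from −1.36 to 1.75. Nothing is read from Fndc9 lying outside that range, since most of its value is the group difference that chose it. Gm12568, a pseudogene 3.70 kb beyond Fndc9, also lies within Cyfip2. It is on the minus strand, as Cyfip2 is, and outside the stretch between 2 exons that holds Fndc9, so the 2 places are not alike. Gm12568 was at 0.953% of Cyfip2 in Control against 0.816% in Prmt1-null iGBs. It had 53.06 ± 7.99 normalized counts (SD, n = 3) in Control libraries and an adjusted p of 0.628 in edgeR's test. The part of unspliced Cyfip2 in the Fndc9 counts was not tested.

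**Figure D3:**
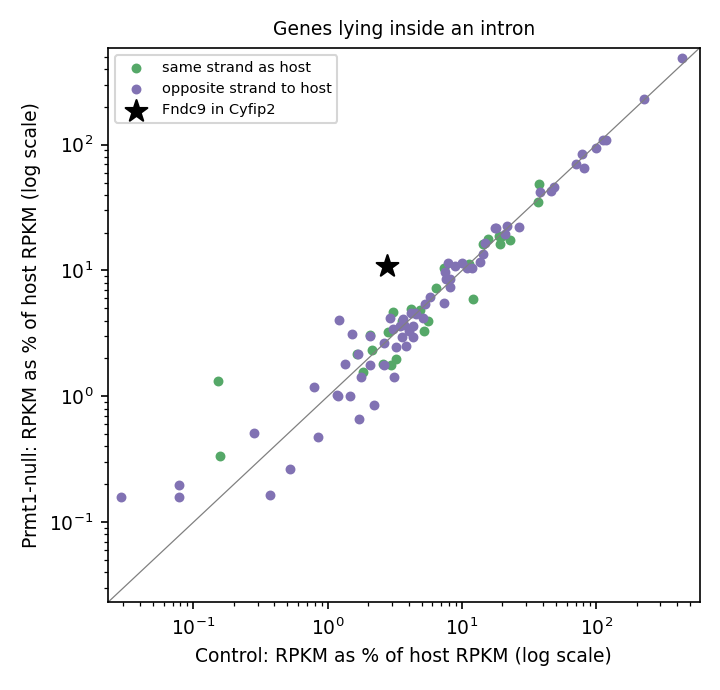
Level of genes that lie inside an intron, as a percentage of the RPKM of the gene around them, in Control (horizontal axis, log scale) and Prmt1-null iGBs (vertical axis, log scale), for hosts with RPKM in the top quartile, in green on the same and in purple on the opposite strand. The line marks equal percentages, and Fndc9 (star), chosen by its group difference, is at 2.74% in Control and 10.8% in Prmt1-null iGBs.

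Few other transcripts resemble that of Fndc9. The 2290-base Fndc9 transcript had 0 alignments of 50 bases or more at 95% identity or more to transcripts of other genes in GENCODE M21, and the longest alignment to another gene spanned 149 bases at 75.2% identity.

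Of the 36 annotated genes within 500 kb of Fndc9, 23 had enough counts to be tested, 16 of them with a mean count over 100, and 1, Cyfip2, was past the threshold, against 1.18% of all tested genes. Their median log2 fold change was −0.01 (−0.001 over all tested genes), with 11 positive and 12 negative values. The groups did not overlap for 5 of the 23, against 19.9% of all tested genes. Genes beside the Cyfip2 locus had values near 0. Adam19, a membrane metalloprotease gene at −88.2 kb (toward lower coordinates), had a value of −0.01 (standard error 0.078), and Med7, a Mediator subunit gene 197 kb away, one of −0.01 (standard error 0.086). The exons of both overlap genes on the opposite strand.

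Farther out, 3 genes with a mean count over 100 had positive values and groups that did not overlap, none with an adjusted p under 0.05 in edgeR's test. The log2 fold change of Thg1l, which adds a guanosine to histidine tRNA, was 0.55 (standard error 0.136, adjusted p = 0.0722). Timd2, a TIM family receptor gene, had 0.24 (standard error 0.063, adjusted p = 0.088), and Havcr1, which encodes TIM-1, had 0.26 (standard error 0.079, adjusted p = 0.139). DESeq2's Wald test, which called 4.08% of all tested genes, put all 3 under 0.05, with adjusted p of 0.00928, 0.0234 and 0.0444. Havcr2, which encodes TIM-3, had only 0 to 23 raw counts, also without overlap between the groups, and a log2 fold change of 2.55 with a standard error of 0.984 (adjusted p = 0.258). Clint1, a clathrin adaptor gene, and Lsm11, a subunit of the histone pre-mRNA processing U7 particle, had 0.10 (standard error 0.074) and −0.12 (standard error 0.145). The other tested genes of the window, mostly pseudogenes and noncoding RNAs, had adjusted p from 0.554 to 0.980.

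**Figure D4:**
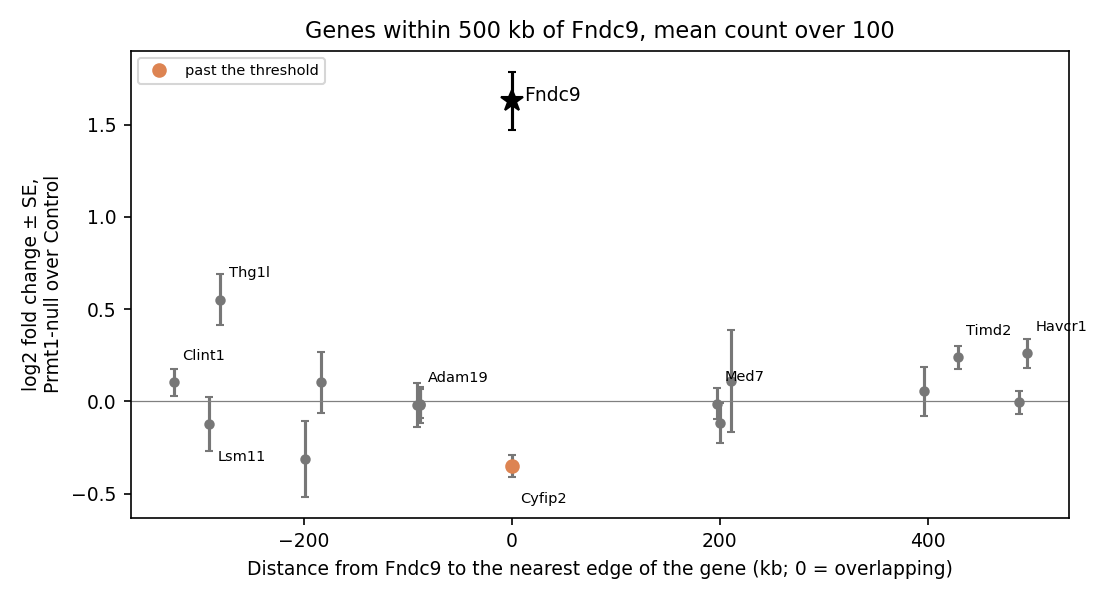
Log2 fold change ± standard error (vertical axis) of the 16 tested genes with a mean count over 100 within 500 kb, by distance from Fndc9 to the nearest edge of the gene in kb (horizontal axis). Fndc9 (star) is at 1.63, Cyfip2 (orange, past the threshold, distance 0) at −0.35, and the other genes lie between −0.31 and 0.55.

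None of the other genes named for an FN3 domain (the FNDC genes) passed the threshold. Of the 10 listed, 9 were in the table, Fndc10 under an older symbol, and Fndc11 was not analysed here. Tests were possible for 5, of which only Fndc3a and Fndc3b had the mean count over 100 that the threshold asks for. Past it in edgeR were 0, against 1.18% of all genes, with 0 at an unadjusted p under 0.05 (13.5% of all genes), 0 in DESeq2 (4.08%) and 0 in limma-voom (1.36%). Their median log2 fold change was 0.08, beside −0.001 for all tested genes. Fndc3a, which has many FN3 repeats and is anchored at the membrane, was the only one at a level like that of Fndc9. It had 7.48 ± 0.997 RPKM in Control and 7.89 ± 0.0592 RPKM in Prmt1-null iGBs (SD, n = 3), with a fitted log2 difference of 0.08 (standard error 0.083, adjusted p = 0.756), and its exons overlap an opposite-strand gene. Per length, all 3 Control libraries had less Fndc9 than Fndc3a and all 3 Prmt1-null libraries had more. Fndc3b, its close relative, had 0.669 ± 0.0486 and 0.788 ± 0.0460 RPKM (log2 fold change 0.24, standard error 0.128, adjusted p = 0.458). Fndc7, Fndc10 and Fndc4 were at 0.278, 0.204 and 0.0869 RPKM in Control, with standard errors of 0.310, 0.825 and 0.706 on their log2 fold changes, too wide to show a change of moderate size. Fndc5, the irisin precursor gene, had 0 to 10 raw counts per library, Fndc1 0 to 15, Fndc3c1 0 to 2 and Fndc8 0 to 1, and none was tested.

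**Figure D5:**
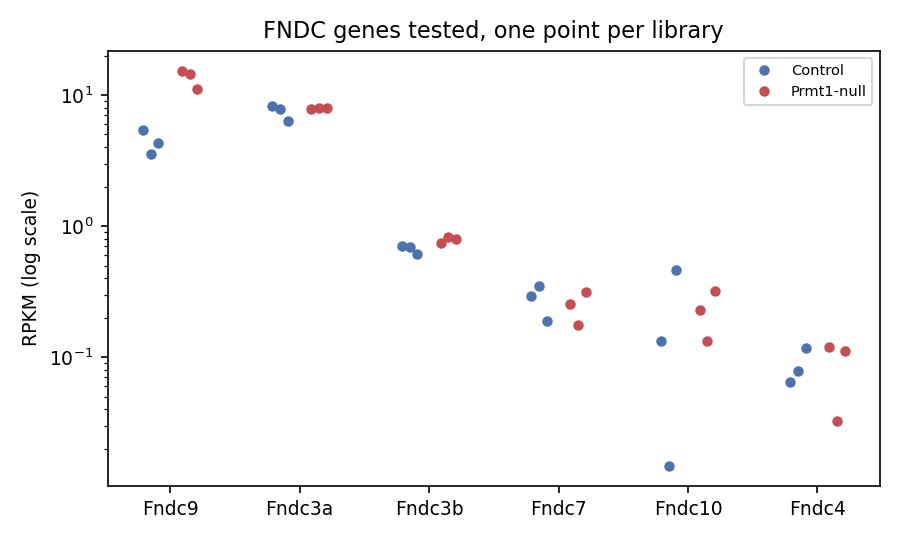
Level in RPKM (vertical axis, log scale) of the 6 FNDC genes with enough counts, 1 point per library, Control in blue and Prmt1-null in red. Fndc9 lies below Fndc3a in the Control libraries and above it in the Prmt1-null libraries, and the points of Fndc3a, Fndc7, Fndc10 and Fndc4 overlap between the groups.

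Among 57 genes for other FN3 proteins, 42 were tested, 35 of them with a mean count over 100, and 0 were past the threshold in edgeR, against 1.18% of all genes. At an unadjusted p under 0.05 there were 9 of 42 (13.5% over all genes), DESeq2 called 4 (Il6ra, Il4ra, Il21r and Ptprs; 4.08% over all genes) and limma-voom 0 (1.36%). Their median log2 fold change was 0.04, with 23 of 42 values positive, and 10 of 42 did not overlap between the groups, against 19.9% of all tested genes. Of the 23 tested cytokine receptor genes 17 had positive values (median 0.08), and the 3 tested receptor phosphatase genes all had negative ones (median −0.18). The 16 other genes had a median of −0.07. The members with the highest mean normalized counts, not scaled to length, were Ptprc, Il2rg and Il21r. Ptprc, which encodes CD45, had means of 70579 ± 610 and 62901 ± 3238 normalized counts in Control and Prmt1-null libraries (SD, n = 3), a log2 fold change of −0.17 (edgeR adjusted p = 0.224). Il2rg, the common gamma chain of the IL-4 and IL-21 receptors, had a log2 fold change of 0.06 (adjusted p = 0.784), and its exons overlap those of another gene. Il21r, the specific chain of the IL-21 receptor, had 30353 ± 2600 and 35858 ± 1866 normalized counts, a log2 fold change of 0.24 (edgeR adjusted p = 0.139).

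Markers of the other cells that the cultures could hold are given beside the Fndc9 values. The 14 fibroblast markers, which the feeders would carry, summed to 16.7 to 21.2 CPM in Control against 21.2 to 26.2 CPM in Prmt1-null iGBs, with 2 of them (Lum and Postn) at 0 in every library. Of the 11 tested, 9 had positive log2 fold changes, with a median of 0.28 (−0.001 over all tested genes). In edgeR 2 of the 11 had an unadjusted p under 0.05 (13.5% of all genes), and 2 did not overlap between the groups (19.9%). Fndc9 alone had 8.09 to 12.3 CPM in Control and 25.3 to 35.2 CPM in Prmt1-null iGBs. The 8 T cell markers summed to 19.3 to 22.7 CPM in Control and 22.8 to 23.8 CPM in Prmt1-null iGBs, without overlap of the sums. Of the 7 T cell markers tested, 1 (Cd5) did not overlap, against 19.9% of all tested genes. The 4 NK cell markers summed to 15.7 to 20.8 and 17.4 to 22.6 CPM. The 8 myeloid markers summed to 39.2 to 47.6 and 41.6 to 48.7 CPM. Adgre1, the macrophage marker F4/80, was the only one of the 48 tested markers (27 with a mean count over 100) past the threshold, which 1.18% of all tested genes passed. It rose from 352.8 ± 52.1 to 585.5 ± 64.6 normalized counts (SD, n = 3), by 0.73 on the log2 scale (edgeR, standard error 0.147, adjusted p = 0.0319). Csf1r, Cd68 and Itgam, which mark the same cells, had log2 fold changes of 0.33, −0.06 and 0.11 (edgeR adjusted p of 0.684 to 0.877). The other tested myeloid markers, Lyz2, S100a8 and Mpo, had −0.75, −1.58 and −0.23 (edgeR adjusted p of 0.513 to 0.948). Of the 7 tested, 3 had positive values, and their median was −0.06. The 6 plasma cell markers summed to 966 to 1086 CPM in Control and 1105 to 1195 CPM in Prmt1-null iGBs, without overlap of the sums. Of the 5 tested, 1 (Xbp1) did not overlap between the groups, against 19.9% of all tested genes. Log2 fold changes were positive for 4 of them and −0.09 for Jchain. In edgeR 0 of the 5 were past the threshold (2 at an unadjusted p under 0.05, 1 in DESeq2 and 1 in limma-voom, against 13.5%, 4.08% and 1.36% of all genes). The 6 germinal center markers summed to 1150 to 1368 and 1155 to 1287 CPM. The part of the feeder, T cell, macrophage and plasma cell signals in the Fndc9 difference was not tested.

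Genes were also ordered by how closely their log2 CPM followed that of Fndc9 from library to library. Likeness was measured as the Pearson correlation over the 6 libraries, among 13091 tested genes with a mean normalized count over 100. The highest values were those of Bdh1, a ketone body enzyme gene (r = 0.996), the kappa variable segment Igkv4-59 (r = 0.995), Coa5, a cytochrome c oxidase assembly gene (r = 0.995), Tcf20, a transcriptional coregulator gene (r = 0.989), and Baz1a, a subunit of a chromatin remodeller (r = 0.988). Their log2 fold changes were 0.21, 0.27, 0.21, 0.32 and 0.16, and of these genes only Tcf20 was past the threshold. Nothing is read from these values being smaller than that of Fndc9, which was chosen for its difference, and the correlation ignores scale. The exons of Bdh1, Tcf20 and Baz1a overlap those of other genes, and Igkv4-59 belongs to a family of like segments, so their counts are uncertain. In all, 73 genes had r over 0.95, and 18 of these were past the threshold, against 216 of all 13092 tested genes with a mean count over 100. Nothing is read from that count because the group difference enters this measure. With each group's mean taken out, the most similar genes were Fryl (r = 0.998), Pacsin1 (r = 0.995), Cep152 (r = 0.993), Unc45a (r = 0.990) and Med1 (r = 0.989). By this measure 86 genes had r over 0.95, of which 0 were past the threshold, against the same 216 of 13092. With 6 libraries and so many genes such values are a description of these libraries only.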

How the data were processed

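Reads had been trimmed (Trimmomatic 0.32), aligned to the mm10 genome (STAR 2.3.0e) and assigned to Ensembl exons (featureCounts 1.4.4) by the authors, who used primary alignments of reads with no more than 2 map positions. The deposited values are these raw counts, without normalization. Totals per library set the precision, and counting errors given above cover counting only, since PCR copies were not marked. Groups, sexes and replicate numbers came from the labels. The mice were separate, 3 per group.

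Chromosome Y genes (398) were left out, as in the study. Genes were filtered with filterByExpr (minimum count 10), scaled by TMM (factors 0.985 to 1.01) and fitted with edgeR 4.0.16 in R 4.3.3, with group as the only term. Standard errors came from the log2 fold change and the F statistic. DESeq2 1.42.0 and limma 3.58.1 (voom) were alternatives, as were median-of-ratios size factors, no filter, the replicate number as a block, a sex term, the chromosome Y genes put back, no minimum mean count and leaving out each library. RPKM used the joined exon lengths of GENCODE M21, to which 37607 genes were matched by ID and 804 by symbol, with 606 unmatched. Log2 CPM used a prior count of 2. In simulated data for this comparison (17868 genes), edgeR recovered 97 of 100 genes changed by 1.5 and 87 of 100 changed by 0.8 on the log2 scale, and 8.91% of its calls were unchanged genes.

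Fndc9, the gene lists and the tests were chosen with earlier results of these data known. Named genes were Fndc9, Prmt1, tested genes within 500 kb, the FNDC genes, FN3 genes past the threshold or among the 3 most abundant, the genes next to Fndc9 in the order of log2 fold change (3 on each side, of which 2 exist above), and the 5 most correlated genes by each measure. Other genes were named after their values were seen, and 1 gene that the rule names is not reported here. Where a symbol had several IDs, the one that GENCODE gives that symbol was used. Same-numbered libraries came from different mice. Replicates differed by more than sampling noise, with a chi-square per degree of freedom of 12.0 to 54.5 between libraries of a group.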

Additional observations from a re-analysis of the deposited data

How the results depend on the processing

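The log2 fold change of Fndc9 stayed positive in every fit. It was 1.17 with DESeq2's zero-centred prior, between 1.63 and 1.66 in the other fits with all libraries, and from 1.49 to 1.80 with a library left out. Its rank among the genes that were higher and past the threshold was 1 with that prior, 5 without the minimum mean count, and 1 to 8 with a library left out (8 without Control replicate 3). The number of genes past the threshold was 746 of 18268 with DESeq2 (4.08%, with and without the prior). It was 675 of 25707 without the filter on low counts, and 31 to 340 with a library left out. Of the 42 tested genes for FN3 proteins, DESeq2 called 4, against 4.08% of all tested genes. The fit without the filter, in which 675 of 25707 genes passed, called 2 (Il21r and Ptprs), and 0 were called with any library left out. Of the 23 tested genes within 500 kb, DESeq2 called 4, against 4.08% of all tested genes. The fit without the filter also called 4, with 675 of 25707 genes passing. With a library left out, 0 to 2 were called. These were 0 without each Prmt1-null library and 2 without Control replicate 3, where 340 of 18967 genes passed. The FNDC genes had 0 calls in every fit. The sex difference of Fndc9 was −0.20 in limma-voom (adjusted p = 0.834) and −0.43 to 0.45 with a library left out, and no fit put it under 0.05. With the replicate block, 151 genes passed and the log2 fold change of Fndc9 was 1.63. The deviations of same-numbered libraries correlated at −0.07, 0.04 and −0.08, so the numbers were not treated as pairs. Depth was not the limit for Fndc9, with 499 counts or more in each library. Fndc4 had 6 to 20 raw counts per library, Fndc10 2 to 50 and Havcr2 0 to 23, and spread between libraries adds to the error of such genes.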
